A study of Mus musculus with 6 samples.

Results

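The amyloid precursor protein gene App, its 2 relatives Aplp1 and Aplp2, and genes whose products cut or bind the APP protein were followed in mouse P19 cells: Psen2, Ncstn, Aph1a, Bace1, Adam10 and Apbb1. Members were chosen by name, and a probe was taken for a gene when its RefSeq accession carried that gene's symbol. This found 10 probes of 8 of the 9 genes, out of 41174 probes and 17178 genes with a symbol on the array. App, Aplp1, Psen2, Ncstn, Bace1 and Apbb1 had 1 probe each, and Aplp2 and Aph1a had a brighter and a dimmer probe, which were kept apart. Adam10, the main alpha-secretase, was not analysed here. All 10 member probes were well above background on all 6 arrays.

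P19 is a mouse embryonal carcinoma line whose cells form neurons and glia after they aggregate in retinoic acid. A line expressing AICD, the intracellular domain of APP, was compared with a line carrying the empty vector pCDNA, here called the AICD line and the vector line. RNA came from 3 states: undifferentiated cells, cells aggregated for 4 days with 5e-07 M all-trans-retinoic acid, and differentiated cells, taken 2 days after the aggregates were replated. Both lines thus went through the same retinoic acid treatment, and each line and state has 1 single-colour Agilent array, 6 in all. The labels do not say how many clones a line holds, which promoter drives AICD, or which species and stretch of APP the AICD construct encodes. Because of that, whether the App probe can also detect RNA of the construct is not known.

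APP is a membrane protein whose outer part is shed by an alpha-secretase such as ADAM10 or by the beta-secretase BACE1. The stub left in the membrane is then cut by gamma-secretase, a complex of a presenilin such as PSEN2, nicastrin (encoded by Ncstn), APH1 and PEN2. That cut releases the amyloid beta peptide, where BACE1 made the first cut, and the intracellular domain AICD, which binds the adaptor Fe65, encoded by Apbb1. APLP1 and APLP2 pass through the same secretases but hold no amyloid beta sequence, and APLP1 is known as a protein mainly of neurons.

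The stretches before the start sites of Aplp1 and Aplp2 are shown because the signal of the first paralog rose strongly between the states and that of the second hardly moved. Each line gives the 250 bases before the RefSeq start in GRCm38.p6, 5′ to 3′ on the gene's strand, with GC boxes (the letters GGGCGG, searched on both strands) in capitals.
Aplp1: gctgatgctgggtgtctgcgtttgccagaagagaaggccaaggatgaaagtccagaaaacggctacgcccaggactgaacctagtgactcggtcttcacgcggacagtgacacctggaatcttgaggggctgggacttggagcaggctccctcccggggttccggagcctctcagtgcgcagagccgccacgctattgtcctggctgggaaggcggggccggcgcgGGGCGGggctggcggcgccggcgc
Aplp2: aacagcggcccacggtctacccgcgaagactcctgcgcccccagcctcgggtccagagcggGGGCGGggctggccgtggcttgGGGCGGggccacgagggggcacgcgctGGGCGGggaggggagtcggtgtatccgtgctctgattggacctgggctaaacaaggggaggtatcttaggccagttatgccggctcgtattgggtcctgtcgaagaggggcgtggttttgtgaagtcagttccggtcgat
The Aplp1 window is chr7:30445583-30445832 on the minus strand, and it lies upstream of the annotated gene. It has 66% G and C, 20 CpG, 1 GC box and 1 E-box (CANNTG). The Aplp2 window is chr9:31211849-31212098, also on the minus strand and upstream of its gene, with 66.4% G and C, 22 CpG, 3 GC boxes and 2 CCAAT boxes. The window of App, not printed because another transcript of App begins upstream of it, has 70.8% G and C, 23 CpG, 1 GC box and 2 E-boxes. None of these 3 windows holds the letters TATAAA. Over the 32536 windows of this length in the RefSeq table, the median is 52.4% G and C and 6 CpG, and 33.0% hold a GC box, 12.3% TATAAA, 33.8% CCAAT and 66.2% an E-box, each searched on both strands. These are matches of letters and not measured binding. Of the 9 genes, 8 had at least 1 window in the table; Bace1 was not among them.

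Levels are given as log2 of the probe's signal minus log2 of the array's 75th percentile, so that 0 is the level of the 75th percentile and 1 unit is a 2-fold difference; they are called normalized log2 signals below. Probes bind with different strength, so a level was compared only with the same probe's level on another array. Between 62.0% and 65.9% of spots were well above background on an array, none was saturated, and probes printed as 10 spots had a median SD over their spots of 0.0934 to 0.120 on the log2 scale. The differences were tested with limma over 28484 probes in a model of state plus line, and called at a Benjamini-Hochberg adjusted p below 0.05. With 1 array per line and state, errors measure how far the line difference varied between states (or the state change between lines), not the spread of replicate cultures, and nothing in the labels gives separate cultures. Both undifferentiated arrays were on 1 slide and the other 4 arrays on another, so for every comparison with the undifferentiated state, state and slide cannot be told apart. The number of arrays limits the precision.

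App rose along the differentiation course. Its normalized log2 signal in the vector line was -0.46 undifferentiated, 1.46 aggregated and 2.88 differentiated. In the AICD line it was -0.21, 0.96 and 2.05. Each later state was higher in both lines, and the AICD line was the higher before differentiation and the lower afterwards. From the undifferentiated to the aggregated state App rose by 1.55 ± 0.31 (SE; limma, adjusted p = 0.0241), and from the undifferentiated to the differentiated state by 2.80 ± 0.31 (adjusted p = 0.0054), a 6.98-fold change. The step from aggregated to differentiated, which lies within 1 slide, was 1.26 ± 0.31 and was not called (limma, adjusted p = 0.0777). The whole change was 3.34 in the vector line, or 10.2-fold, and 2.26 in the AICD line, or 4.80-fold.

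**Figure D1:**
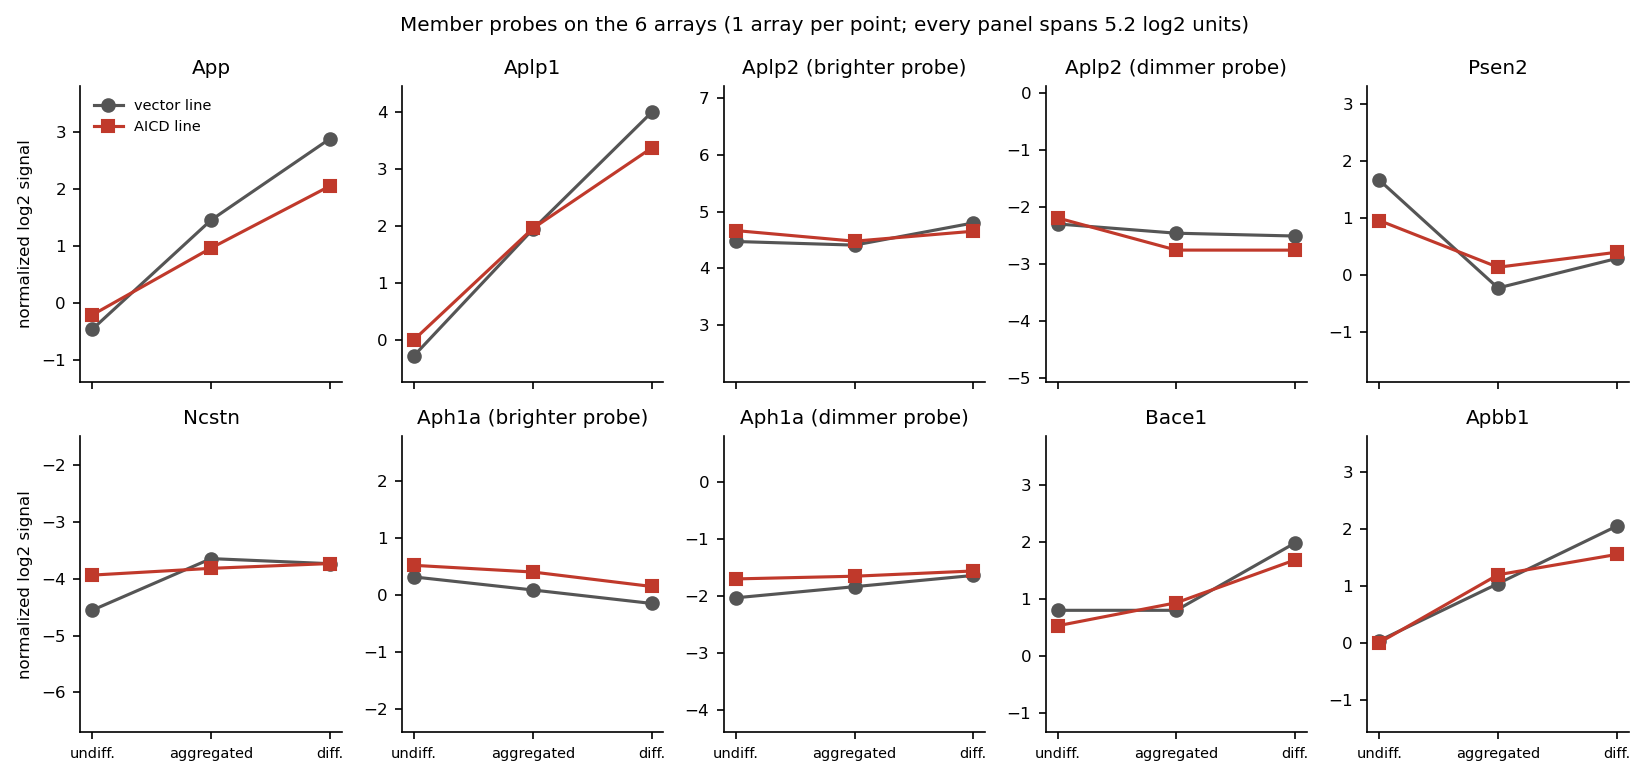
Normalized log2 signal (y axis) of each of the 10 member probes in the 3 states (x axis), with 1 point per array, circles for the vector line and squares for the AICD line; all panels span the same range. App, Aplp1 and Apbb1 climb in both lines, Bace1 is higher only at the last state, Psen2 is highest in undifferentiated cells, and the other probes stay within 1 unit.

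The App probe was the one member probe printed as 10 spots on each array, so its measuring error could be read within an array. In undifferentiated cells the spots ran from -0.62 to -0.39 for the vector line and from -0.30 to -0.15 for the AICD line. In aggregated cells they ran from 1.28 to 1.53 in the vector line and from 0.86 to 1.04 in the AICD line. In differentiated cells they ran from 2.79 to 2.97 in the vector line and from 1.91 to 2.15 in the AICD line. The spots of the 2 lines did not overlap in any state, and no neighbours in the order of the 6 arrays overlapped. Spots of an array share 1 RNA sample and 1 hybridisation, so they carry the error of measurement and not that of cultures.

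**Figure D2:**
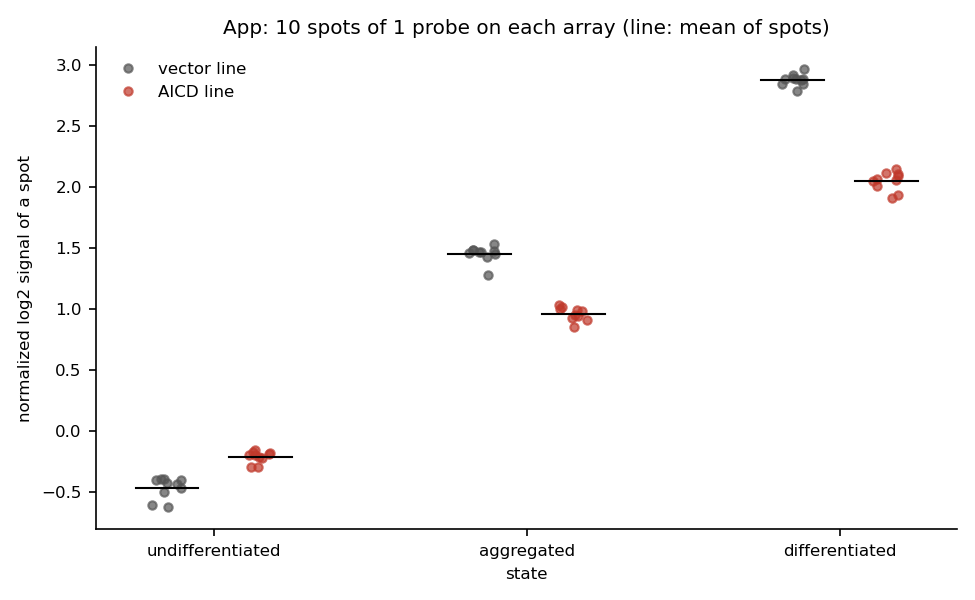
Normalized log2 signal (y axis) of the 10 App spots on each array, by state (x axis) and line, with a short line at the mean. In every state the 2 clouds are apart: the AICD line is above in undifferentiated cells (-0.30 to -0.15 against -0.62 to -0.39) and below in differentiated cells (1.91 to 2.15 against 2.79 to 2.97).

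Aplp1 had the widest range of the 10 member probes. Its normalized log2 signal went from -0.27 to 1.94 and 4.00 in the vector line and from 0.01 to 1.96 and 3.37 in the AICD line. The states did not overlap, and the lines were nearly level in aggregated cells. Aplp1 rose by 2.09 ± 0.27 from undifferentiated to aggregated cells (SE; limma, adjusted p = 0.0122) and by 3.82 ± 0.27 to the differentiated state (adjusted p = 0.0036), a 14.1-fold change. Its second step, 1.73 ± 0.27, missed the threshold (limma, adjusted p = 0.0539).

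Aplp2, the broadly expressed relative, moved little by either probe. The brighter probe measured 4.47, 4.41 and 4.80 in the vector line and 4.67, 4.48 and 4.65 in the AICD line, in the order undifferentiated, aggregated, differentiated. All 6 levels lay within 0.39 of each other, a 1.31-fold range, and the states overlapped. The dimmer probe measured -2.30, -2.46 and -2.51 in the vector line and -2.19, -2.76 and -2.76 in the AICD line, a 1.48-fold range. The fitted change to the differentiated state was 0.16 (95% interval -0.31 to 0.62) by the brighter probe and -0.39 (-0.89 to 0.11) by the dimmer, and neither was called (limma, adjusted p = 0.457 and 0.130). With quantile normalization in place of the percentile, the brighter probe's change was 0.80 and called (limma, adjusted p = 0.0236).

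Among the gamma-secretase subunits, Psen2, a catalytic presenilin, was the member that fell. Its normalized log2 signal was 1.67 in undifferentiated vector cells and 0.96 in undifferentiated AICD cells, against -0.23 and 0.14 in aggregated cells and 0.29 and 0.40 in differentiated cells. Both undifferentiated arrays lay above all 4 later ones. Psen2 fell by 1.36 ± 0.31 on aggregation (SE; limma, adjusted p = 0.0319), a 2.56-fold change, while the change to the differentiated state, -0.97 ± 0.31, was not called (adjusted p = 0.0527). The change on aggregation was -1.89 for the vector line and -0.82 for the AICD line, whose undifferentiated level was 0.71 below the other's; these single-array values have no test. Without the filter on dim probes the fall on aggregation missed the threshold (limma, adjusted p = 0.0571). With each array left out in turn it was called in 1 fit of 6, the one without the undifferentiated AICD array.

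Ncstn, the subunit that receives substrates, was the dimmest member probe. It measured -4.55, -3.65 and -3.74 in the vector line and -3.94, -3.82 and -3.74 in the AICD line. The undifferentiated vector array was the lowest, and the other 5 arrays lay between -3.94 and -3.65. Its change to the differentiated state was 0.51 (95% interval -0.17 to 1.19; limma, adjusted p = 0.142). Most of that change depended on the background correction. With normexp the step to the aggregated state was 0.08 in place of 0.51, and the step from there to the differentiated state was -0.05 in place of -0.0027.

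Aph1a, the scaffold subunit, gave small differences by both probes. The brighter measured 0.31, 0.08 and -0.15 in the vector line and 0.52, 0.40 and 0.15 in the AICD line, and the dimmer -2.03, -1.84 and -1.64 against -1.70, -1.65 and -1.56. The AICD line was the higher in all 3 states by both probes, while along the states the probes moved in opposite directions. To the differentiated state the brighter gave -0.42 ± 0.15 and the dimmer 0.27 ± 0.16 (SE; limma, adjusted p = 0.0713 and 0.212), so the direction for the gene depends on the probe.

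Bace1, the beta-secretase, moved late. Its normalized log2 signal was 0.80 in both the undifferentiated and the aggregated vector cells and 1.98 in the differentiated ones, and 0.53, 0.93 and 1.68 in the AICD line. Both differentiated arrays lay above the other 4. Bace1 rose by 1.17 ± 0.19 from the undifferentiated to the differentiated state (SE; limma, adjusted p = 0.0096), a 2.25-fold change that was nearly equal in the vector line, 1.18, and the AICD line, 1.16. The first step was 0.20 ± 0.19 (limma, adjusted p = 0.415) and the second, within 1 slide, 0.97 ± 0.19 (adjusted p = 0.0618). Without the differentiated vector array the whole change was not called (limma, adjusted p = 0.0695).

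Apbb1, the adaptor Fe65 that AICD binds, rose with differentiation. It measured 0.05, 1.05 and 2.06 in the vector line and 0.01, 1.20 and 1.56 in the AICD line. The states did not overlap. The rise was 1.097 ± 0.22 to the aggregated state (SE; limma, adjusted p = 0.0247) and 1.78 ± 0.22 to the differentiated state (adjusted p = 0.0061), a 3.44-fold change, and the second step alone was 0.68 ± 0.22 (adjusted p = 0.117). With 1 array left out, the rise to the aggregated state ran from 0.89 to 1.31, and its call was lost in some of these fits.

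By count, 3 of the 10 member probes (App, Aplp1 and Apbb1) rose from undifferentiated to aggregated cells and 1 (Psen2) fell, where 19.4% of all probes rose and 24.3% fell. With 1 array left out, this change ran from 1.09 to 2.00 for App, 1.79 to 2.38 for Aplp1, 0.89 to 1.31 for Apbb1 and -1.83 to -0.88 for Psen2. Some member calls were lost in these fits. Each leaves a state with 1 array and has fewer samples, so the losses cannot show whether the calls rest on single arrays. From aggregated to differentiated cells 0 of 10 were called by limma, against 2.33% of all probes in either direction; 4 of the 10 had an unadjusted limma p below 0.05, against 34.9% of all probes. With normexp background correction 3 of the 10 were called in this step, where 16.2% of all probes were: App (limma, adjusted p = 0.033), Aplp1 (0.0175) and Bace1 (0.0241). From undifferentiated to differentiated cells 4 of 10 rose (App, Aplp1, Bace1 and Apbb1), against 26.1% of all probes, and 0 fell, against 35.9%. Psen2 and the brighter Aph1a probe, both lower in differentiated cells, had an unadjusted limma p of 0.0332 and 0.0477. The median over all probes was -0.15 for the first step and -0.23 for the whole change, and -0.05 and -0.15 with quantile normalization, so the members' rises stood against a median slightly below 0.

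**Figure D3:**
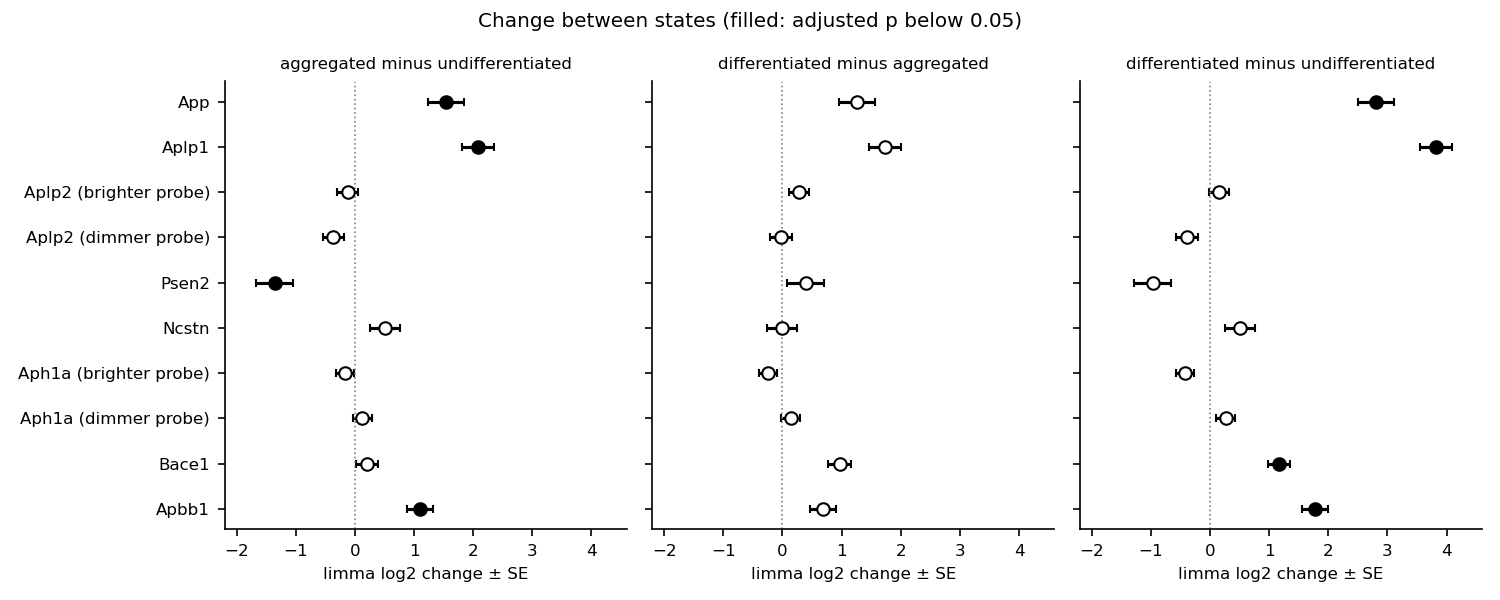
Limma log2 change between states (x axis) with its SE for each member probe (y axis), in 3 panels for the 2 steps and the whole change; filled points passed an adjusted p of 0.05. App, Aplp1 and Apbb1 are filled to the right of 0 in the first and last panels, Bace1 in the last and Psen2 to the left in the first, and the middle panel has no filled point.

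The line difference asks whether AICD expression went with other levels of the genes that make and bind AICD. Over the 3 states no member was called: limma called 0 of the 10 probes and 0 had an unadjusted p below 0.05, where 78 probes, 0.274% of all, were called and 11.8% had such an unadjusted p. App had the estimate farthest from 0, -0.36 ± 0.25 (SE; AICD minus vector, 95% interval -1.04 to 0.33; limma, adjusted p = 0.641). It was -0.66 without either undifferentiated array, which is also the value within the second slide, and -0.12 without either differentiated array. Aph1a came next, with 0.27 ± 0.12 by its brighter probe (-0.06 to 0.61; adjusted p = 0.484) and 0.20 ± 0.13 by its dimmer one (adjusted p = 0.623). The estimates of the other 7 probes lay between -0.15 and 0.15. These intervals still allow App a line difference of 1 unit, and they do not show that the lines had equal levels.

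Within single states the line difference (AICD minus vector) of App was 0.25 in undifferentiated, -0.49 in aggregated and -0.83 in differentiated cells. That of Aplp1 was 0.28, 0.02 and -0.63. Apbb1 gave -0.03, 0.16 and -0.50, and Bace1 -0.27, 0.13 and -0.30. In differentiated cells these 4 genes, which all rose with differentiation, were thus lower on the AICD array than on the vector array. Psen2 gave -0.71, 0.36 and 0.11 and Ncstn 0.62, -0.17 and 0.00, so their widest differences were in undifferentiated cells. The Ncstn value was -0.03 with normexp background correction, in place of 0.62. Aplp2 gave 0.19, 0.07 and -0.15 by the brighter probe and 0.11, -0.30 and -0.25 by the dimmer. Of the 10 member probes, none was at least 2-fold apart between the lines in any state, where 6.74%, 6.06% and 6.81% of probes above background on both arrays were, in the order of the states. These are differences between 2 arrays each, with no test, and whether the line difference changes with the state could not be tested.

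**Figure D4:**
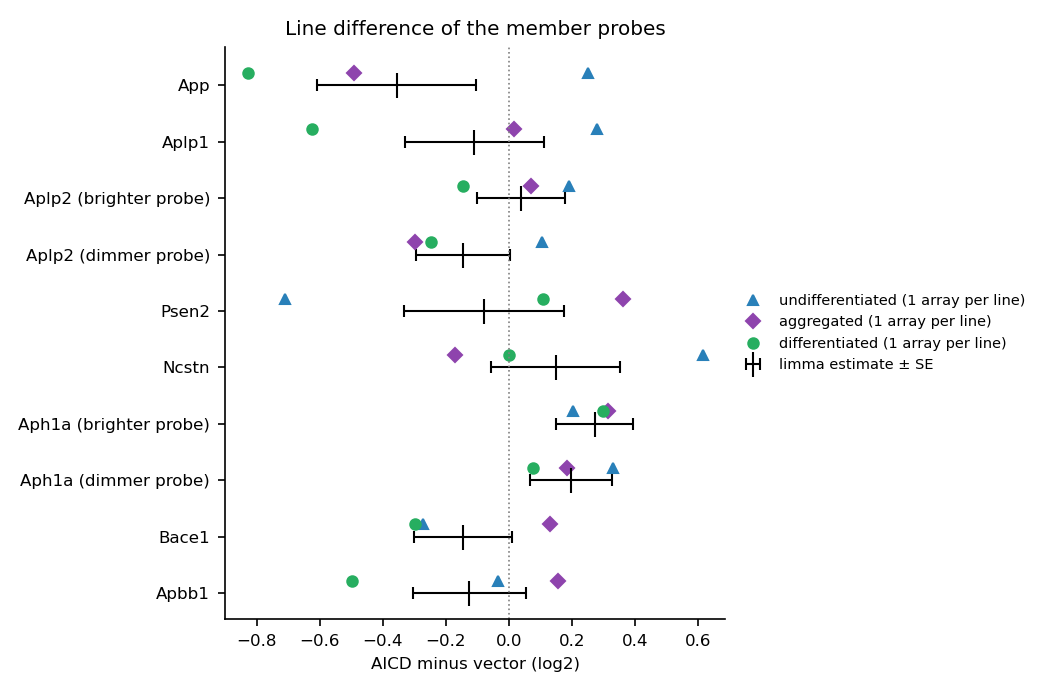
Difference of AICD minus vector (log2, x axis) for each member probe (y axis): coloured symbols give the 3 states, 1 array per line each, and the black bar the limma estimate over the states with its SE. For App the symbols run from 0.25 in undifferentiated to -0.83 in differentiated cells, and both Aph1a probes have all 3 symbols above 0.

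Markers of cell types were read beside these values; in bulk RNA, fewer cells of a type and less RNA per cell cannot be told apart. Of the 10 neuron markers, 9 rose from undifferentiated to differentiated cells by the same limma test, and the summed signal of all 10, relative to the 75th percentile, went from 15.3 to 54.1 and 198 in the vector line and from 15.1 to 83.4 and 152 in the AICD line. In differentiated AICD cells, where App, Aplp1, Apbb1 and Bace1 were lower, 9 of the 10 neuron markers were lower too, with a median difference of -0.33, while in aggregated cells 9 of the 10 were higher, with a median of 0.66. Of all 13393 genes, 6856 were higher in differentiated and 7000 in aggregated AICD cells. The exceptions were Nefm, 0.59 higher in differentiated AICD cells, and Rbfox3, lower in the AICD line in every state (-2.59, -2.04 and -3.45). The summed signal of the 6 mesenchyme markers was 12.8 to 37.9 on the vector arrays and 7.59 to 13.9 on the AICD arrays, with all 6 lower in the AICD line once cells had aggregated and again after they had differentiated. On the AICD arrays the sum was mostly Acta2, whose line difference was -0.08 in aggregated and -0.27 in differentiated cells by its brightest probe. Over the 3 states the limma line estimate of that probe was -0.06, while other Acta2 probes gave -0.81 and -0.71. The other markers gave -7.87 to -4.99 in differentiated cells. There Col1a1, Pdgfrb and Thy1 were not well above background on the AICD array. The sum of 4 pluripotency markers went from 90.5 to 0.593 and 1.06 in the vector line and from 94.5 to 9.77 and 9.97 in the AICD line, with no test of the sum. The line gap in that sum was mostly Pou5f1, which measured 6.37 and 6.48 in undifferentiated cells, -2.36 (vector) and 3.23 (AICD) in aggregated cells and -0.61 and 3.26 in differentiated cells. Utf1 was nearly level between the lines in aggregated cells, at -2.98 and -3.01. Its line difference (AICD minus vector) was -1.33 in undifferentiated and 0.55 in differentiated cells. Tdgf1 was higher in the AICD line in every state, by 0.95, 1.68 and 0.88, though not well above background on the differentiated vector array. Dppa5a was lower in the AICD line in every state, and Zfp42 was not well above background on any array. The sum of 5 glial markers was 8.36 and 9.15 in undifferentiated and 54.2 to 63.8 in differentiated cells, but this was mostly Fabp7, also a gene of neural progenitors, which measured 5.96 and 5.64 in differentiated cells. Of the 5, Fabp7 and S100b rose, Slc1a3 and Aldh1l1 fell, the median change was -0.26, and Gfap was not well above background on any array. The median line difference of the 5 (AICD minus vector) was -0.18, 0.39 and 1.34 in the order of the states. In differentiated cells Slc1a3 was 1.75 and Aldh1l1 1.34 higher in the AICD line. Olig2 was higher too, but not well above background on the vector array. Fabp7 (-0.32) and S100b (-0.20) were lower. Endoderm markers summed to 0.252 to 0.515 on all arrays, and of the endothelial and blood markers Pecam1, Cdh5 and Ptprc were not well above background on any. Kdr, from the same list, was well above background on all 6 arrays, at normalized log2 signals of -4.94 to -3.13. The line difference of Kdr (AICD minus vector) was 1.29, -1.31 and -0.24 in the order of the states. The part of these cell types in the members' differences was not tested.

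Other genes of the APP pathway were read as lists, with the brightest probe of each gene taken from the same fit over all probes; on this footing 20.5% of 13393 genes rose from undifferentiated to differentiated cells, 40.9% fell, and the median change was -0.42. No gene of the 5 pathway lists was called for the line difference, where 0.366% of genes were. The lists are described by counts and medians and were not tested as sets. In the next paragraphs each value is the limma log2 change from undifferentiated to differentiated cells, and "rose" or "fell" means a limma adjusted p below 0.05.

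Of 7 measured genes for other secretases and their subunits, 3 rose and 1 fell, with a median of 0.20. Aph1b, an alternative APH1 subunit, rose by 2.32, with its other probes between 0.17 and 2.66, and its close paralog Aph1c was at least 1.51-fold higher. The signals of this pair are uncertain, since near-identical copies can share a probe. Mmp24, a metalloproteinase known as an eta-secretase for APP, was at least 26.5-fold higher. Adam17, an inducible alpha-secretase, fell by 0.63, and Psenen, which encodes PEN2, gave -0.35 (limma, adjusted p = 0.111). Bace2 and Mep1b did not pass the filter on dim probes.

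Of 15 measured genes for adaptors that bind the cytoplasmic tail of APP, 8 rose and 3 fell, with a median of 1.06 (0.93 with a dim gene at its bound). The Fe65 relatives Apbb2 and Apbb3 rose by 2.26 and 1.06, beside the 1.78 of Apbb1. Of the X11 (Mint) adaptors, which slow APP processing, Apba2 rose by 3.35 and Apba1 was at least 1.91-fold higher, while Apba3, the broadly expressed one, fell by 1.07. The JNK scaffolds Mapk8ip1 and Mapk8ip2 rose by 1.26 and 1.70. Another 2 pairs moved apart: Dab1, the neuronal Reelin adaptor, rose by 1.57 and Dab2 fell by 2.21, and Shc3, the neuronal Shc form, rose by 1.12 and Shc1 fell by 2.44. Other Dab1 probes gave -0.69 to 1.20.

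Of 20 genes for trafficking of APP and its secretases, 7 rose and 5 fell, with a median of 0.35. Of the LDL receptor family, Vldlr rose by 2.70, Lrp8 by 2.61 (0.39 and 0.41 by its other probes) and Lrp1 by 1.34, and Lrp10 fell by 0.66. The reticulons, which bind BACE1, rose as well, Rtn1 by 6.32, Rtn3 by 1.12 (0.44 to 1.69 by its other probes) and Rtn4 by 0.84. The endocytosis gene Bin1 rose by 1.21 (0.32 by its other probe). The 5 that fell were Cd2ap, by 1.62, the sorting adaptor Gga2, by 1.32, Tmed10, by 0.94, Lrp10, and the retromer subunit Vps35, by 0.50. The other Tmed10 probe gave a change of 0.035, in the upward direction. With the fit made on 1 probe per gene, Lrp10 was not called (limma, adjusted p = 0.0515).

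Of 12 genes whose products degrade or bind amyloid beta, 2 rose and 6 fell, with a median of -0.89. The degrading peptidases Mme (neprilysin), Thop1, Ide and Ace fell by 4.08, 1.97, 1.42 and 1.30. The binding proteins clusterin (Clu) and Apoe fell by 5.13 and 2.09. Mme and Clu were each not well above background on 1 of the 6 arrays. Ece2 rose by 1.28 (0.71 by its other probe) and Prnp by 1.79.

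Of 20 genes for other substrates of gamma-secretase, 9 rose and 1 fell, with a median of 1.39 (1.05 with dim genes at their bounds). Notch1 rose by 2.81 and its ligand Dll1 by 3.47. Among guidance and adhesion receptors, Dcc was at least 460-fold higher, Ephb2 rose by 2.75, Epha4 by 2.03 and Cdh2 by 1.63. The neurotrophin receptor Ngfr rose by 5.87 and Sdc3 by 3.24, but their other probes gave 1.12 and -1.03. Erbb4 was at least 1.47-fold higher, and Nrg1 fell by 0.90.

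For the line difference (AICD minus vector), the estimates farthest from 0 among genes well above background on all 6 arrays were as follows, and none was called. Among gamma-secretase substrates the ephrin Efnb1 gave 1.59 ± 0.74, and the Notch ligands Jag1 and Jag2 gave 1.25 ± 0.26 and -0.97 ± 0.17 (SE; limma, adjusted p = 0.493, 0.221 and 0.166). Among trafficking genes the sorting receptor Sorcs2 gave 1.39 ± 0.20 and Rtn1 0.91 ± 0.25 (limma, adjusted p = 0.127 and 0.327). Apoe gave 1.12 ± 0.22 (limma, adjusted p = 0.206). Among the adaptors Apbb2 gave -0.57 ± 0.23 and Apba2 -0.55 ± 0.23, and among the secretases Adam9 gave 0.45 ± 0.16 (limma, adjusted p = 0.453, 0.454 and 0.406). The Fe65 relatives were thus, like Apbb1, without a called line difference.

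**Figure D5:**
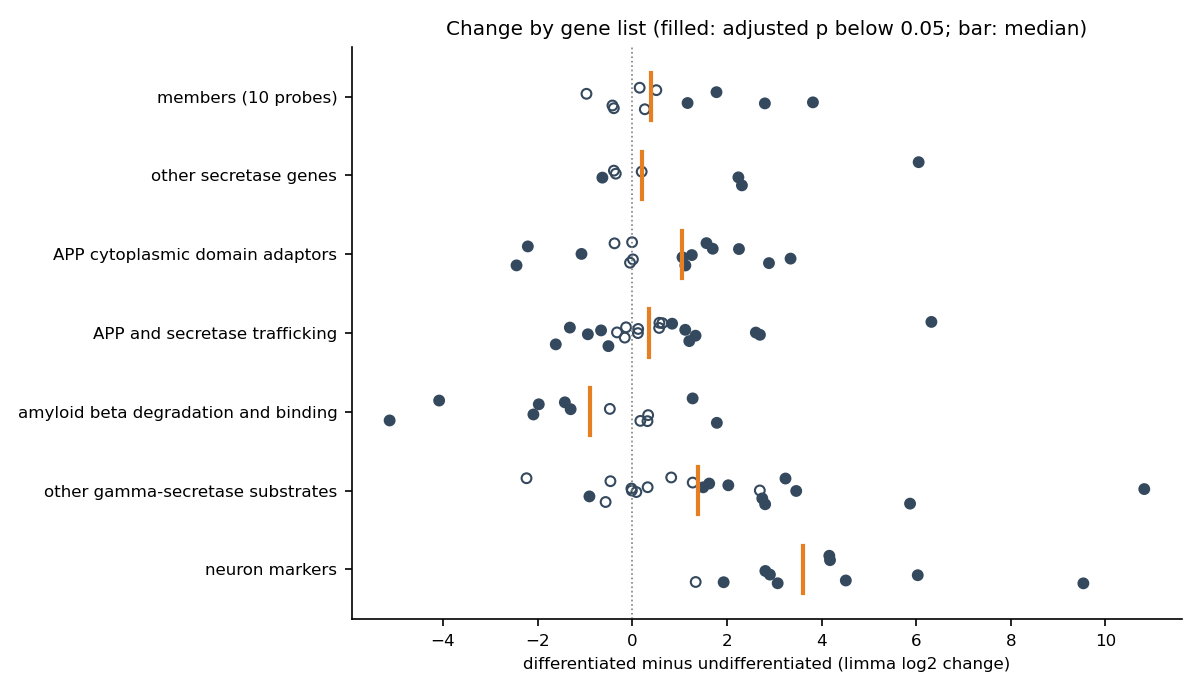
Limma log2 change from undifferentiated to differentiated cells (x axis) for the 10 member probes, the genes of 5 APP pathway lists and 10 neuron markers, with 1 point per probe or gene, filled where the adjusted p was below 0.05, and a bar at the median. Points of genes that are dim in undifferentiated cells, such as Dcc, are fitted values and not bounds; the neuron markers' median is 3.62 and that of the amyloid beta degradation and binding list -0.89.

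Genes with the pattern most like each member were ranked by the root mean square difference of centred log2 signals over the 6 arrays, among 11475 genes above background on all arrays. For App these were Tanc2, Tmx4 and Dpysl5, with Tanc2 at a difference of 0.0979. For Aplp1 they were Pik3r3, at 0.102, Mapre3 and Pcdhac2. Apbb1 was nearest to Clip3, at 0.0422, then Polr3gl and Ip6k2, and Bace1 to Tnfrsf21, at 0.0547, then Limk2 and Ppp1r9b. Psen2 lay nearest to Sh3bp4, at 0.0644, then Guca2a and Niban2. Sh3bp4 showed the same 2 high undifferentiated arrays, at 1.74 and 0.82, against -0.26 to 0.32 on the other 4. For Ncstn the nearest were Fut8, at 0.0596, Nrip1 and Usp40. For the flatter genes they were Aagab, at 0.0419, C1galt1c1 and Manea for Aplp2, and Rfk, at 0.0117, Jtb and Smarcb1 for Aph1a; with 6 arrays and so many genes, close matches to a flat pattern are common. Between members, App was nearer to Aplp1 (0.444) and to Apbb1 (0.476) than to either Aplp2 probe (1.12 and 1.32).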

How the data were processed

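RNA of 6 samples was measured on 6 Agilent Cy3 arrays. Per the file headers, the authors read each array with Feature Extraction 10.1.1.1, and the processed signal used here is an intensity with the background removed. The values per probe that the authors deposited beside it are a score. Compared with the scanner files, over 99.4% of the listed scores match, within 0.01, log2 signals centred on the array's 75th percentile and then on the probe's median, with negative values written as the reciprocal of their size; they served only as an alternative.

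Spots of a probe were averaged on the linear scale, without control spots and spots marked as outliers, and log2 signals were set against the array's 75th percentile. Probes were named through RefSeq accessions in the RefSeq annotation of GRCm38.p6 (24844 of 41174 probes) and kept when well above background on at least 2 arrays, which left 28484. The tests used limma 3.58.1 in R 4.3.3 (with version 1.17.8 of data.table), ~ state + line, with eBayes and Benjamini-Hochberg adjustment over all probes kept; 2 residual degrees of freedom were joined by a prior worth 2.23. Tests are two-sided. Lists take the brightest probe of each of 13393 genes from this fit, with its p adjusted over all probes kept. A fold for a gene not well above background on any array of a group is a lower bound against the lowest signal well above background ("at least" in the text). The script was tested on simulated data.

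The members and lists were chosen with earlier results of these data known. Names in the text are all members and, per pathway list, genes called in any comparison or among the 4 with the largest line difference or change between states; Bace2 and Mep1b are named outside this rule. Alternatives were normexp, quantile normalization, other filters, 1 probe per gene, each array left out, and the second slide alone. Normexp was planned on the mean spot signal; it was run on the median spot signal and median background, chosen after the columns of the files were seen.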

Additional observations from a re-analysis of the deposited data

How the results depend on the processing

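No paired analysis was possible because each line and state has 1 array and the sample numbers carry no pairing; the line difference is already fitted with state as a term. The rises of App, Aplp1, Bace1 and Apbb1 to the differentiated state were called under normexp, quantile normalization, both other filters and 1 probe per gene. The count of member probes that fell on aggregation was 0 of 10 with no filter, where 5798 of all 41172 probes fell. The count that rose from aggregated to differentiated cells was 3 with normexp and 3 with probes well above background on all 6 arrays (App, limma adjusted p = 0.0481, Aplp1, 0.0318, and Bace1, 0.0373). Over all probes, 1998 of 28482 rose in this step with normexp and 1779 of 23080 with the all-array filter. The count that fell to the differentiated state was 2 with normexp (Psen2 and the dimmer Aplp2 probe) and 1 with the all-array filter (Psen2). Over all probes, 11297 of 28484 fell with normexp and 9364 of 23080 with the all-array filter. Leaving out each array in turn gave 0 to 0 member calls for the line and for the step from aggregated to differentiated cells, which says nothing of stability for the 4 fits without an aggregated or a differentiated array, since limma called 0 of all probes there. It gave 0 to 3 rises and 0 to 1 falls on aggregation, and 3 to 5 rises and 0 to 1 falls to the differentiated state. Bace1 was lost without the differentiated vector array (limma, adjusted p = 0.0695), Ncstn was gained without the undifferentiated AICD array (0.0472), Aplp1 alone rose on aggregation without the undifferentiated vector array, and without either aggregated array 0 probes of all were called in that step. These fits leave a state with 1 array, which is assumed to vary like the others, and fewer samples. Direction turned for the line difference within the second slide for the brighter Aplp2 probe (-0.038), Psen2 (0.24) and Ncstn (-0.084), and for the brighter Aplp2 probe on aggregation with quantile normalization (0.23). With 1 array left out, the line difference ran from -0.66 to -0.12 for App, -0.30 to 0.15 for Aplp1, -0.038 to 0.13 for the brighter Aplp2 probe, -0.30 to 0.24 for Psen2, -0.084 to 0.31 for Ncstn and -0.27 to 0.061 for Apbb1. The first step ran from -0.0063 to 0.41 for Bace1, and the second from -0.14 to 0.088 for the dimmer Aplp2 probe and from -0.24 to 0.24 for Ncstn. None of the turned values was called; the cause was not tested. Over all probes, line calls numbered 78, 0 with no filter and 195 with normexp, and calls in the second step 663, 0 with no filter, 0 with 1 probe per gene, 101 with quantile normalization, 3749 with the all-array filter and 4612 with normexp. With 1 probe per gene the dimmer Aplp2 and Aph1a probes have no value.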
